A study of Mus musculus with 12 samples.

Results

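The angiotensin and endothelin genes examined here were Agt, Ace, Agtr1a, Edn1, Edn3, Ednra, Ednrb and Ece1, chosen as rows of those names in the count tables of a mouse heart study. They are 8 of the 16673 genes present in both tables, and each had counts in all 12 libraries. The study deleted Ddx5, which encodes a DEAD-box RNA helicase, in cardiomyocytes and compared left ventricles of male mice with controls, 3 libraries a group. The constitutive knockout, mCKO, carried floxed Ddx5 alleles (DDX5fl/fl) and Cre under the cardiomyocyte promoter of Myh6, and was collected when 8 weeks old, untreated. Its controls, CTR1, were age-matched DDX5fl/fl mice. The inducible knockout, iCKO, carried the floxed alleles with Myh6-MerCreMer, a Cre that tamoxifen activates. Tamoxifen was given to iCKO and to its DDX5fl/fl controls, CTR2, on 5 days (20 mg/kg/day). The design text speaks of collection after 7 days of tamoxifen, and no age is given. No control carried Cre, so the presence of Cre and the loss of Ddx5 cannot be told apart within either comparison. The labels do not say whether the 3 libraries of a group came from separate mice, so p-values measure the spread between these libraries.

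Both systems set vascular tone. Angiotensinogen, the product of Agt, is cut by renin to angiotensin I, which angiotensin-converting enzyme (Ace) turns into angiotensin II, and the type 1 receptor (Agtr1a) passes the signal on through Gq. Endothelins (Edn1, Edn3) are made as precursors that endothelin-converting enzyme (Ece1) cuts, and act on the A receptor (Ednra), found on muscle cells, and the B receptor (Ednrb), found mainly on endothelium. In the heart both systems are known for vasoconstriction, myocyte growth and fibrosis.

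The 8 genes are protein coding and lie, on GRCm38.p6, at chr8:124556587-124569706 (Agt), chr11:105967948-105989964 (Ace), chr13:30336356-30382867 (Agtr1a), chr13:42301476-42307990 (Edn1), chr2:174760619-174784042 (Edn3), chr8:77663029-77724452 (Ednra), chr14:103814615-103844508 (Ednrb) and chr4:137862237-137965229 (Ece1). Exons of Ace share 295 bases (5.58% of its exon length) with an antisense gene, Gm11651, those of Edn1 share 35 bases (1.64%) with Gm47118, and those of Ednra share 91 bases (1.66%) with 4933431K23Rik. Whether the counting used strand is not given, so reads in those stretches are uncertain.

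The bases upstream of the start are shown for 3 of the genes. These are Edn3 and Agt, for which the difference between the models was called (for Agt not in every fit), and Ace. For Ace that difference was not called, but its rise in iCKO was. They are the 250 bases before the RefSeq start on GRCm38.p6, written 5′ to 3′ on the gene's strand, for Edn3 (chr2:174760369-174760618, plus strand), Agt (chr8:124569707-124569956, minus strand) and the first of 2 starts of Ace (chr11:105967698-105967947, plus strand). Capitals mark matches on either strand to the TATA box (TATAAA), the GC box (GGGCGG), the AP-1 site (TGACTCA), the cyclic AMP response element (TGACGTCA), the site of GATA factors (AGATAA) or the STAT site (TTCNNNGAA).
Edn3: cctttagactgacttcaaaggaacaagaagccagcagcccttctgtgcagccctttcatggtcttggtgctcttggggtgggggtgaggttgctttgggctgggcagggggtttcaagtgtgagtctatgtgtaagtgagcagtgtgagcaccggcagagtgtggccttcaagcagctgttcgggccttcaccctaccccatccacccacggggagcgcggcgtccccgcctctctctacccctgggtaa
Agt: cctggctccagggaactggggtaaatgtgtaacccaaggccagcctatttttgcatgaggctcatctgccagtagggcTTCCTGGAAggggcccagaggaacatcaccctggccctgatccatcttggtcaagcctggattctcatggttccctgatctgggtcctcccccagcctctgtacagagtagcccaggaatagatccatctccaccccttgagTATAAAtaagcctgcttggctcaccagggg
Ace: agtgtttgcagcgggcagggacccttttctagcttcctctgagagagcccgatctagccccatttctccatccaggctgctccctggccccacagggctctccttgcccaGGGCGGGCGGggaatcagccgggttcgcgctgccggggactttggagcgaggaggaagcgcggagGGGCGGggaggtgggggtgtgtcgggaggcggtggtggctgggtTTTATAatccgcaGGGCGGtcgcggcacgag
The window of Edn3 held none of these letters. That of Agt held TATAAA at -30 to -25, counted back from the start, and TTCCTGGAA at -172 to -164. In the window of Ace the TATA letters lay on the other strand at -31 to -26, and GGGCGG occurred 4 times, 2 of them overlapping. Over all 32851 RefSeq promoters, windows of the same length held TATAAA in 12.4%, GGGCGG in 32.7%, TGACTCA in 4.46%, TGACGTCA in 1.55%, AGATAA in 9.99% and TTCNNNGAA in 7.02%. The sequence table matched 7 of the 8 genes, Agtr1a being the other. Of the 11 windows of these genes, 4 held a match, all in Agt, Ace or Ece1.

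Each library held between 19682268 and 25871882 counts, and values are given as CPM, a gene's count relative to its library's total, after TMM scaling of all 12 libraries together. Replicate 3 of mCKO and of CTR1 stood apart together: the sum of 15 endothelial markers was 4076 and 4154 CPM there, against 2297 to 2430 CPM in the other 4 libraries of those groups. Replicate 2 of CTR2 stood apart from its group in Agt, Edn1 and Ednra. Ddx5 itself was lower in every knockout library, at 216 to 233 CPM in mCKO against 396 to 637 in CTR1 and at 196 to 214 CPM in iCKO against 572 to 712 in CTR2. Its log2 fold change was -1.57 ± 0.15 (SE) in iCKO (edgeR adjusted p = 1.7e-04). In mCKO it was -1.29 ± 0.20 (edgeR adjusted p = 0.17), and -1.26 ± 0.12 with the replicate number as a block (edgeR adjusted p = 0.0019). That block was used beside the plain fit for mCKO because deviations from the group means correlated between mCKO and CTR1 libraries of equal number. Libraries 1 and 2 correlated across numbers (r = 0.551 and 0.528) about as they did within them (0.462 and 0.530). The numbers thus set replicate 3 apart but do not show that 1 and 2 are pairs. Fits without both libraries numbered 3 are therefore given too. Replicate 3 of CTR1 had the lowest Ddx5 of its group.

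The order of expression was read per kilobase of exon, as CPM per kb with its SD over 3 libraries. Ece1 was the highest of the 8 in all 4 groups, at 26.4 ± 11.4 CPM per kb in CTR1, 27.8 ± 12.6 in mCKO, 30.4 ± 2.07 in CTR2 and 34.6 ± 5.21 in iCKO. Edn3 was the lowest in all 4, at 0.623 ± 0.358 in CTR1, 1.72 ± 0.790 in mCKO, 0.800 ± 0.141 in CTR2 and 0.123 ± 0.0949 in iCKO. Agtr1a came next after Ece1 in CTR1, mCKO and CTR2, and below Ece1, Ace and Agt in iCKO. Agt lay below Ece1, Agtr1a, Ednra and Ace in CTR2, at 7.53 ± 5.03 CPM per kb, and only below Ece1 and Ace in iCKO, at 22.3 ± 6.47. Neighbours in the order often overlapped between libraries. In CTR2, Ece1 lay above Agtr1a without overlap, Agtr1a, Ednra, Ace, Agt and Ednrb overlapped in turn, and Edn1 and Edn3 were apart. In iCKO, Ece1, Ace and Agt overlapped in turn, Agtr1a overlapped with Ednra, and Ednrb, Edn1 and Edn3 were apart. In CTR1 the first 4 genes, Ece1, Agtr1a, Ace and Ednra, overlapped in turn, as did Ednrb with Agt, while Edn1 and Edn3 were apart. In mCKO the overlaps broke once, between Ace and Ednra.

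**Figure D1:**
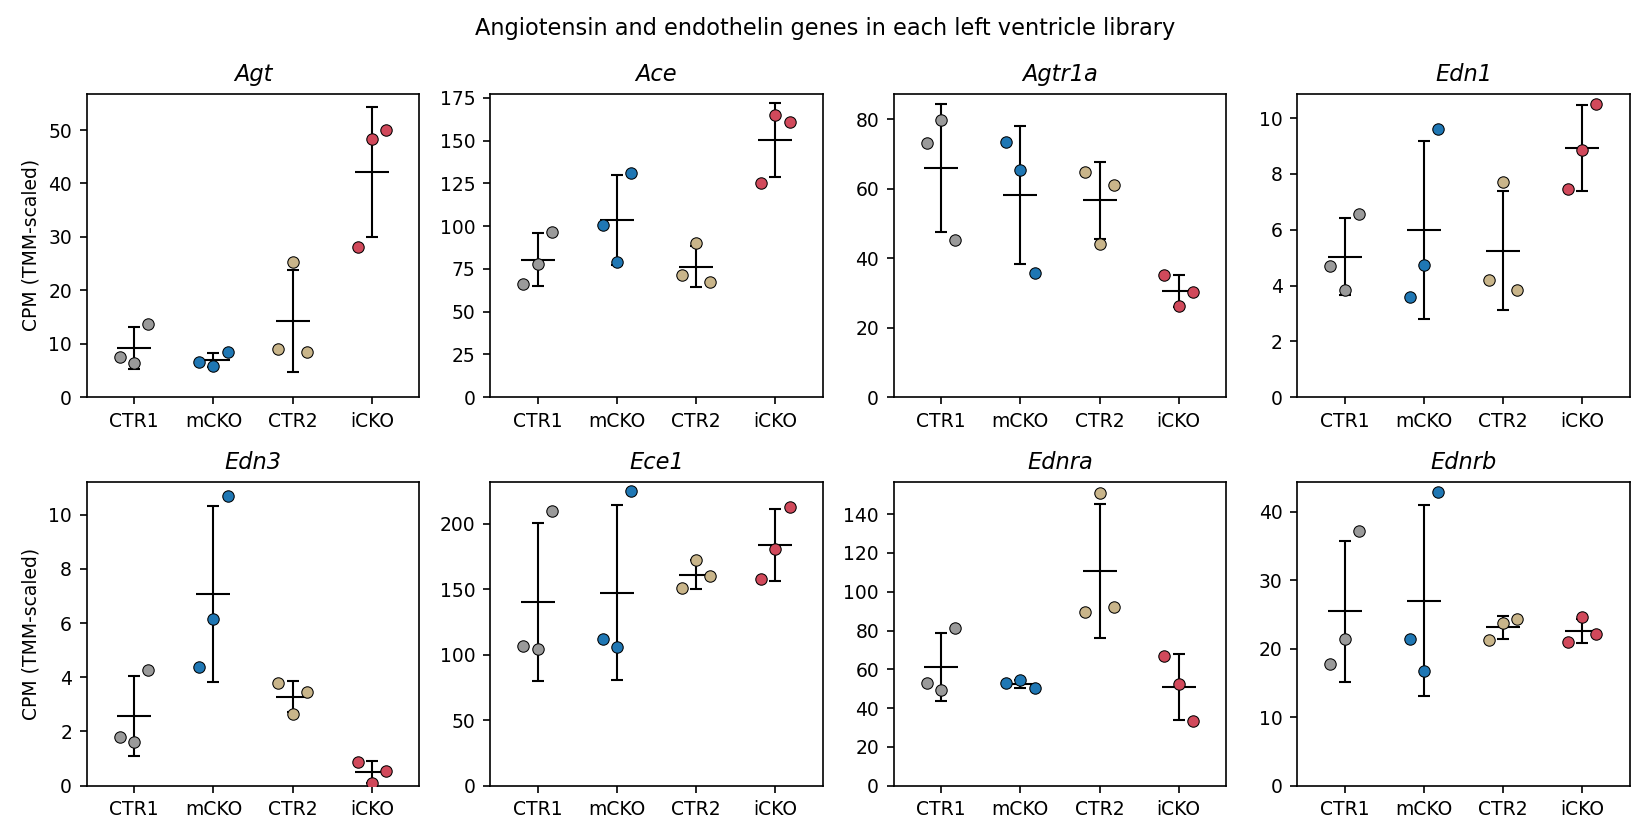
Each point is 1 left ventricle library, with CPM after TMM scaling on the vertical axis (each panel has its own scale from 0) and the 4 groups on the horizontal axis; horizontal bars are means and whiskers SD (n = 3). Agt, Ace and Edn1 lie higher in 2 or more iCKO libraries than in any CTR2 library, Edn3 is 0.882 CPM or less in iCKO, and Ece1 and Ednrb show replicate 3 of CTR1 and mCKO well above the others.

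In iCKO against CTR2, the genes of precursor and converting enzyme of the angiotensin pathway rose while that of its receptor fell, and in the endothelin pathway Edn1 rose while Edn3 and Ednra fell. Of the 8 genes 3 rose, 3 fell and 2 (Ednrb and Ece1) were not called at a Benjamini-Hochberg adjusted p of 0.05 in edgeR, so 75% were called. In this comparison 44.8% of the 13548 genes tested were called, 25.2% higher and 19.5% lower. Libraries of the knockout and its control did not overlap for the same 6 genes, 3 higher and 3 lower, beside 31.9% of all genes higher and 27.0% lower. With the replicate number as a block the same 6 were called, beside 40.5% of all genes. The median log2 fold change of the 8 was 0.12, and that of all genes tested 0.03.

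Agt gave 8.99, 25.2 and 8.49 CPM in CTR2 replicates 1, 2 and 3, and 28.0, 48.4 and 49.9 CPM in iCKO. Every iCKO library lay above every CTR2 library, though replicate 1 of iCKO was close to replicate 2 of CTR2. The log2 fold change was 1.60 ± 0.42, or 3.04-fold (edgeR adjusted p = 0.0154). Without replicate 2 of CTR2 it was 2.30 (edgeR adjusted p = 0.0017). The call was lost, at 1.36, 1.33 and 1.45 on the log2 scale, without replicate 1 of CTR2, replicate 3 of CTR2 or replicate 3 of iCKO (edgeR adjusted p = 0.0563, 0.0528 and 0.0601).

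Ace, whose product also breaks down bradykinin, gave 71.7, 90.0 and 67.4 CPM in CTR2 and 125, 165 and 161 CPM in iCKO. The groups were well apart. Ace rose 2.03-fold, by 1.02 ± 0.17 on the log2 scale (edgeR adjusted p = 0.0020), and kept its call without any 1 library (log2 fold change 0.93 to 1.15).

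Agtr1a, which encodes the receptor through which angiotensin II constricts vessels, gave 64.7, 44.1 and 61.1 CPM in CTR2 and 35.3, 26.2 and 30.2 CPM in iCKO. All 3 iCKO libraries were below the lowest control. The log2 fold change was -0.85 ± 0.19 (edgeR adjusted p = 0.0084), a level 0.556 times that of CTR2, and the call held without any 1 library.

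Among the endothelin ligands, Edn1 gave 4.19, 7.70 and 3.86 CPM in CTR2 and 7.45, 8.85 and 10.5 CPM in iCKO. By TMM scaling within this table the groups did not overlap, but on the scaling over 12 libraries replicate 2 of CTR2 exceeded replicate 1 of iCKO. The log2 fold change was 0.80 ± 0.28 (edgeR adjusted p = 0.0479). Without replicate 2 of CTR2 it was 1.18 (edgeR adjusted p = 0.0068). Leaving out replicate 1 or 3 of CTR2, or replicate 2 or 3 of iCKO, ended the call, at 0.66, 0.62, 0.80 and 0.66 (edgeR adjusted p = 0.154, 0.164, 0.105 and 0.111).

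Edn3, the other ligand gene, gave 3.78, 2.65 and 3.44 CPM in CTR2 and 0.882, 0.103 and 0.532 CPM in iCKO. The iCKO values rest on 25, 3 and 14 counts, beside 74, 55 and 66 in CTR2. A count of 0 in a library would allow up to 0.103 to 0.156 CPM, so replicate 2 of iCKO was at that limit. Edn3 fell, with a log2 fold change of -2.65 ± 0.55 (edgeR adjusted p = 0.0054), and the fall was called without any 1 library. Without replicate 2 of iCKO it was -2.16 and without replicate 1 of iCKO -3.36.

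Of the receptors, Ednra gave 89.6, 151 and 92.2 CPM in CTR2 and 67.0, 52.6 and 33.1 CPM in iCKO. Every iCKO library was below every control, and replicate 2 of CTR2 was the highest. The log2 fold change was -1.07 ± 0.30 (edgeR adjusted p = 0.0205). It was -0.79 without replicate 2 of CTR2 (edgeR adjusted p = 0.0740) and -1.09 without replicate 2 of iCKO (edgeR adjusted p = 0.0570), so either library decides the call.

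Ednrb gave 21.2, 23.8 and 24.4 CPM in CTR2 and 21.0, 24.6 and 22.2 CPM in iCKO, with a log2 fold change of 0.01 ± 0.15 (edgeR adjusted p = 0.96). The groups overlapped throughout. Ece1 gave 151, 172 and 160 CPM in CTR2 and 157, 181 and 212 CPM in iCKO, with a log2 fold change of 0.23 ± 0.15 (edgeR adjusted p = 0.247). On library sizes alone, without TMM, it was 0.44 and called (edgeR adjusted p = 0.0355). That scaling moved the median log2 fold change of all genes from 0.03 to 0.24.

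**Figure D2:**
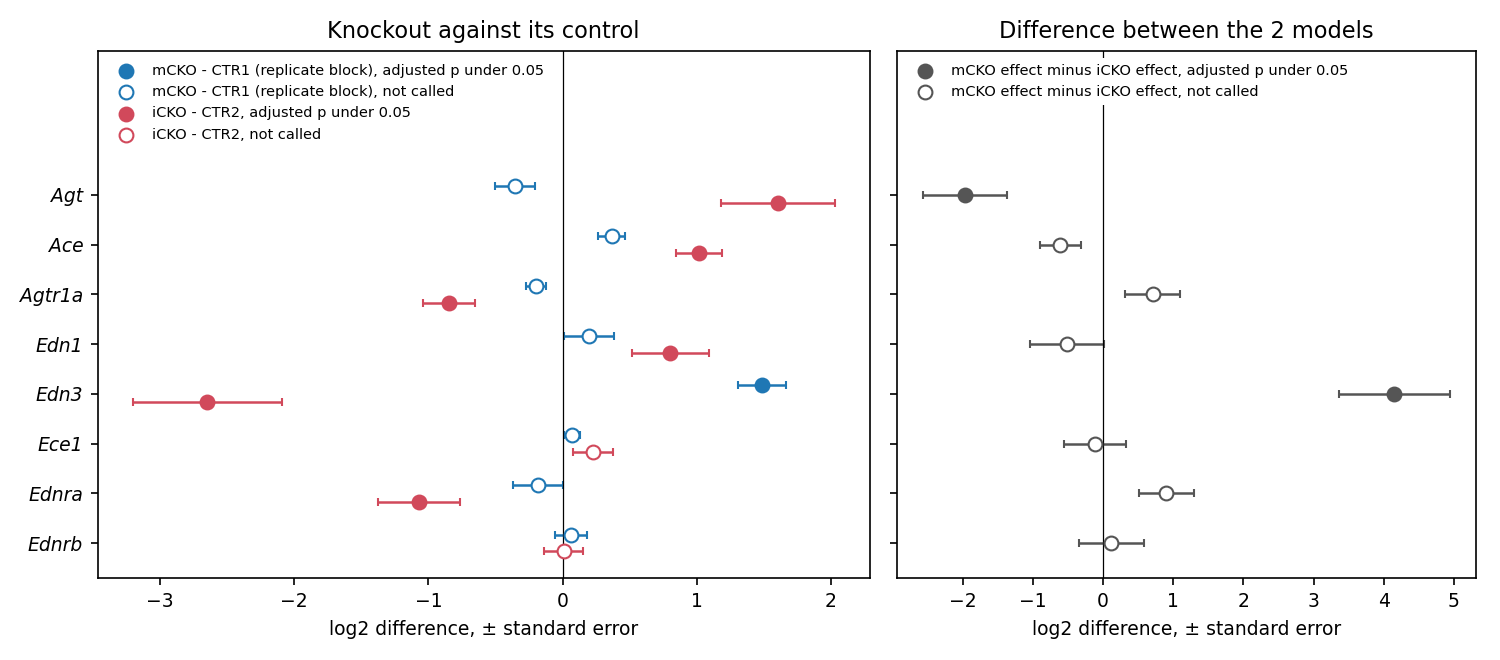
Log2 differences with standard errors (horizontal axis) for the 8 genes, at left for each knockout against its control (mCKO with the replicate block) and at right for the mCKO effect minus the iCKO effect; filled points have an edgeR adjusted p under 0.05. Edn3 is the only gene filled in both fits at left, at 1.49 in mCKO and -2.65 in iCKO, and Edn3 and Agt are filled at right.

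In mCKO against CTR1, Edn3 was higher in every knockout library and the other 7 genes overlapped between groups. Without the block edgeR called 0 of the 8 genes and 0 of all 13353 genes tested (0%), although 1164 (8.72%) had an unadjusted p under 0.05; DESeq2 called none of the 8 and 310 of all genes. With the replicate block 1 of the 8 (12.5%) was called, higher, beside 13.8% of all genes, with 7.32% of all genes higher and 6.45% lower. Without both libraries numbered 3 and with no block, 1 of the 8 was called, beside 7.79% of all genes (3.85% higher and 3.94% lower). Groups did not overlap for 1 of the 8, higher, beside 7.69% of all genes higher and 7.30% lower. The median log2 fold change of the 8 was 0.06 with the block and that of all genes 0.005.

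Edn3 gave 1.81, 1.62 and 4.26 CPM in CTR1 replicates 1, 2 and 3, and 4.37, 6.15 and 10.7 CPM in mCKO. Replicate 3 was the highest of both groups, and the lowest mCKO library barely exceeded the highest control. The log2 fold change was 1.47 ± 0.49 without the block (edgeR adjusted p = 0.457) and 1.49 ± 0.18 with it (edgeR adjusted p = 5.8e-04), 2.80-fold. Without replicate 3 of both groups and with no block it was 1.61 (edgeR adjusted p = 0.0089). Each mCKO library thus also exceeded the control of its number, which follows from the groups not overlapping and adds no further evidence.

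The angiotensin genes of mCKO were not called with or without the block. Agt gave 7.59, 6.31 and 13.7 CPM in CTR1 and 6.65, 5.90 and 8.39 CPM in mCKO, and its log2 fold change with the block was -0.35 ± 0.15 (edgeR adjusted p = 0.14). Each mCKO library lay below its numbered control, but the groups overlapped. Ace gave 66.2, 77.7 and 96.9 CPM in CTR1 and 100, 79.2 and 131 CPM in mCKO, 0.36 ± 0.10 with the block (edgeR adjusted p = 0.0549). Without replicate 2 of both groups, with the block, Ace was called at 0.52 (edgeR adjusted p = 0.0041). Agtr1a gave 73.1, 79.9 and 45.1 CPM in CTR1 and 73.3, 65.5 and 35.6 CPM in mCKO, with replicate 3 the lowest of both groups. Its log2 fold change with the block was -0.20 ± 0.08 (edgeR adjusted p = 0.116). Without replicate 1 of both groups, with the block, it was called at -0.31 (edgeR adjusted p = 0.0168).

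The remaining endothelin genes of mCKO were not called. Ece1 was 106, 104 and 210 CPM in CTR1 and 112, 106 and 224 CPM in mCKO, and Ednrb was 17.8, 21.4 and 37.1 CPM in CTR1 and 21.4, 16.7 and 42.8 CPM in mCKO. Replicate 3 was the highest of both groups in both genes, as it was for the endothelial marker sum. Edn1 was 4.70, 3.86 and 6.57 CPM in CTR1 and 3.59, 4.75 and 9.60 CPM in mCKO, and Ednra 53.0, 49.4 and 81.5 CPM in CTR1 and 53.1, 54.4 and 50.1 CPM in mCKO. For Ednra only the control of that number was high. With the block their log2 fold changes were 0.07 ± 0.06 for Ece1, 0.06 ± 0.12 for Ednrb, 0.20 ± 0.19 for Edn1 and -0.19 ± 0.19 for Ednra (edgeR adjusted p = 0.504 to 0.791). The part of endothelial content in these values was not tested.

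The difference between the models was tested in 1 edgeR fit of all 12 libraries as the mCKO effect minus the iCKO effect. By design the models differ in Cre, in tamoxifen, in how long before collection Ddx5 was deleted, and possibly in age. Each model also came as a separate set of counts with its own controls. None of these can be told apart. The difference was called for 2 of the 8 genes (25%), beside 20.8% of the 13871 genes tested. That share is near that of all genes, of which 9.88% were lower. For Edn3 it was 4.15 ± 0.79 (edgeR adjusted p = 0.0039): Edn3 was higher in mCKO than in CTR1 and fell in iCKO, and the difference was called without any 1 of the 12 libraries, between 3.63 and 4.82. For Agt it was -1.96 ± 0.60 (edgeR adjusted p = 0.0362). Leaving out any 1 of 7 libraries ended the call for Agt (edgeR adjusted p = 0.0711 to 0.0757), namely replicate 3 of CTR1, replicates 1 and 2 of mCKO, replicates 1 and 3 of CTR2, and replicates 2 and 3 of iCKO, at values of -1.60 to -1.92. Without replicate 2 of CTR2 it was -2.71.

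The other 6 genes were not called in the difference. Ednra stood at 0.90 ± 0.39 (edgeR adjusted p = 0.122), Agtr1a at 0.71 ± 0.39 (0.221), Ace at -0.61 ± 0.29 (0.16), Edn1 at -0.52 ± 0.53 (0.517), Ednrb at 0.12 ± 0.46 and Ece1 at -0.12 ± 0.44. Without both libraries numbered 3 of mCKO and CTR1 the difference was called for 1 of the 8, beside 21.3% of all genes. With the replicate block 3 of the 8 were called, beside 28.1% of all genes (14.8% higher and 13.3% lower), the added one being Agtr1a at 0.67 ± 0.17 (edgeR adjusted p = 0.0175). Without replicate 3 of mCKO alone, and no block, Agtr1a was 0.97 and called as well (edgeR adjusted p = 0.0495).

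Ratios of counts within a library do not depend on how libraries are scaled. The pairs were taken after the values had been seen, so their p-values are descriptive: the 2 ligands and the 2 receptors. Edn3 to Edn1 was 0.385, 0.419 and 0.648 in CTR1 and 1.22, 1.29 and 1.11 in mCKO. In mCKO Edn3 had more counts than Edn1 in every library, and in CTR1 fewer in every library. The 95% exact binomial intervals of the mCKO ratios, 0.902 to 1.65, 0.983 to 1.71 and 0.928 to 1.33, all included 1. These counts are not corrected for exon length. Per kb, mean Edn3 lay below mean Edn1 in mCKO as well (1.72 against 2.79 CPM per kb). The same ratio was 0.902, 0.344 and 0.892 in CTR2 and 0.118, 0.0117 and 0.0507 in iCKO, the second of these resting on 3 counts of Edn3 (95% exact binomial interval 0.00239 to 0.0345, counting error only). The ligand ratio thus lay above its control range in mCKO and below it in iCKO.

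Ednra to Ednrb was 4.22, 6.34 and 3.78 in CTR2 and 3.18, 2.14 and 1.49 in iCKO, lower in every iCKO library. In CTR1 it was 2.98, 2.30 and 2.19 and in mCKO 2.48, 3.26 and 1.17, which overlap. By a two-sided exact permutation test, 3 of the 4 comparisons gave p = 0.1, the smallest that 3 against 3 libraries allow, and Ednra to Ednrb in mCKO gave p = 0.9; adjusted over the 4, the first 3 are 0.133.

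**Figure D3:**
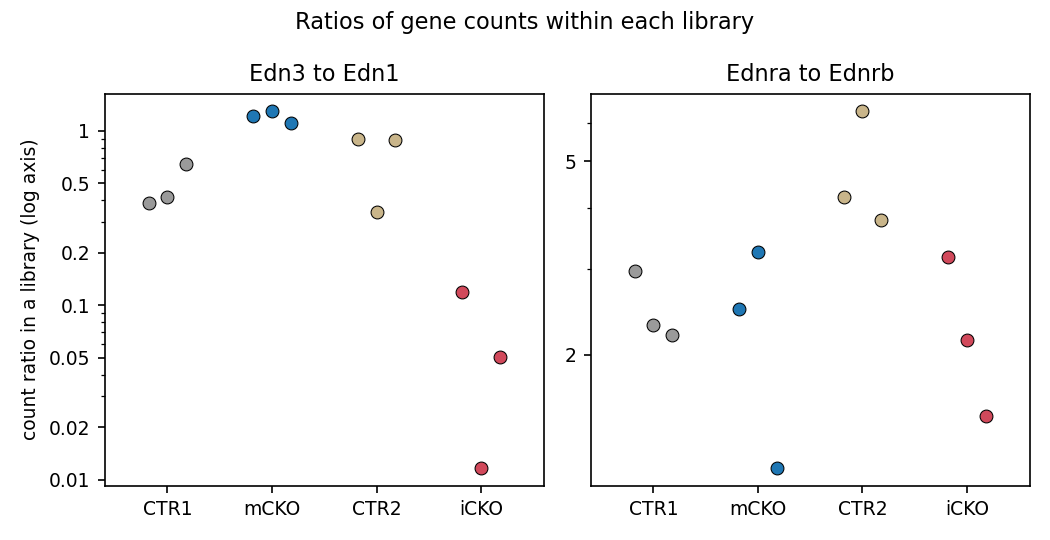
Each point is the ratio of 2 genes' raw counts in 1 library, on a log axis, for the 4 groups of 3 libraries. Edn3 to Edn1 is 1.11 to 1.29 in mCKO and 0.118 or less in iCKO, and Ednra to Ednrb is 1.49 to 3.18 in iCKO against 3.78 or more in CTR2.

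For each gene, the 2 genes with the nearest pattern were found among 11771 genes, as the smallest root mean square difference of log2 CPM over the 12 libraries after centring each experiment. This is a description with no test, and the libraries share their depth and cell content. Agt was nearest to Fos (0.27) and Actg1 (0.27), and Edn3 to Cpxm2 (0.52) and Cdh16 (0.65), the median gene being at 0.83 from Agt and 1.30 from Edn3. Ace was nearest to Scpep1 (0.11) and Plod3 (0.12), Agtr1a to Rsad1 (0.13) and Lamb2 (0.13), and Edn1 to Grrp1 (0.15) and Btg3 (0.19). Ednra was nearest to Spag9 (0.17) and Adam22 (0.18). Ednrb was nearest to Ece1 (0.15), another of the 8, and Tspan5 (0.15), and Ece1 to Mapk3 (0.09) and the vascular connexin gene Gja4 (0.10).

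Other genes of the angiotensin and kinin pathway were given by a list of 29, of which 20 could be tested in each comparison. In iCKO 6 rose and 2 fell (40%, beside 44.8% of all genes), with a median log2 fold change of 0.04. Mme, which encodes the peptide-removing enzyme neprilysin, fell from 9.05 to 13.6 CPM in CTR2 to 1.55, 1.48 and 1.10 in iCKO, with a log2 fold change of -3.01 (edgeR adjusted p = 1.1e-04). The genes of 4 other peptidases that cut angiotensins rose on the log2 scale, Dpp3 by 1.11, Anpep by 0.88, Prcp by 0.83 and Prep by 0.62. Not all peptidase genes of the list rose. Lnpep (-0.61), Enpep (-0.35), Ctsd (-0.40), Mcpt4 (-0.71), Thop1 (0.21) and Cma1 (0.28) were not called. Bdkrb2, the bradykinin B2 receptor, rose by 3.07 and Atp6ap2, the prorenin receptor, by 0.83. In mCKO 0 of these 20 genes were called without the block, and with it Lnpep was higher (0.30, edgeR adjusted p = 0.0381) and Mme lower (-0.45, edgeR adjusted p = 0.0290), 10% beside 13.8%.

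Several genes of both pathways were near 0, low or not listed. Renin (Ren1), the second type 1 receptor (Agtr1b) and aldosterone synthase (Cyp11b2) were not listed and are not analysed here. The type 2 receptor Agtr2 had counts of 1, 0 and 1 in CTR1 and 0 in all 3 mCKO libraries. Edn2 had counts of 1, 2 and 2 in CTR1, 0, 0 and 1 in mCKO, 0 in all 3 of CTR2, and 6, 8 and 9 in iCKO, too low to be tested. The Mas receptor gene Mas1 was low but could be tested. It had 46, 67 and 6 counts in CTR1 and 54, 57 and 8 in mCKO. In CTR2 it had 29, 5 and 11 counts and in iCKO 15, 8 and 1. Mas1 was not called in iCKO (-1.36, edgeR adjusted p = 0.212) or in mCKO with the block (-0.07, edgeR adjusted p = 0.890). Ece2 had at most 1 count in any library.

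Of 3 testable genes on the other endothelin and vessel peptide list, 1 was called in iCKO (33.3%, beside 44.8% of all genes). This gene, Adm, which encodes the vasodilator adrenomedullin, fell by 0.65 (edgeR adjusted p = 0.0361). The call on Adm was lost without replicate 1 or 3 of CTR2 or replicate 1 or 2 of iCKO (-0.55, -0.67, -0.55 and -0.56; edgeR adjusted p = 0.0883 to 0.122), on library sizes alone (-0.45, edgeR adjusted p = 0.103) and in 1 fit of all 12 libraries (-0.69, edgeR adjusted p = 0.0624). Nos3, endothelial nitric oxide synthase, and Npr1, the receptor for atrial natriuretic peptide, stood at -0.27 and -0.29 and were not called. In mCKO none of the 3 was called, with or without the block.

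Genes that couple these receptors to the cell moved both ways in iCKO, 10 higher and 9 lower of 39 tested (48.7%, near the 44.8% of all genes), with a median of -0.19. Of 4 genes for regulators that shorten G protein signals, Rgs2 fell by 1.67 and Rgs5 by 1.33, and Rgs3 (-0.30) and Rgs4 (-0.36) were not called. Also lower was the G protein gene Gna12, which fell by 1.27, while the receptor kinase gene Grk5 rose by 1.14, the protein kinase C gene Prkcb by 1.12 and Gnai3 by 0.87 (edgeR adjusted p = 0.0033 or less for the 6 named as changed). Rgs5 is also on the mural marker list. With the block, 5 of 39 were higher and 3 lower in mCKO (20.5%, beside 13.8% of all genes), among them Prkcd at 0.66, Prkcb at 0.56, Arrb2 at 0.45 and Arrb1 at 0.38, and the calcineurin subunit genes Ppp3cb at -0.37 and Ppp3ca at -0.25. Without both libraries numbered 3 and with no block, 2 of 39 were higher and 2 lower, beside 7.79% of all genes called.

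Textbook response genes of angiotensin II and endothelin, which other stimuli induce as well, were all higher in iCKO: 24 of 24 rose (beside 25.2% of all genes called higher), with a median of 2.97. The list was chosen with earlier results of these data known, so its counts are a description and no independent test. In 1 of the 24 no CTR2 library held more than 5 counts, and that gene passed the filter only through iCKO. Postn rose by 5.77, Ccl2 by 5.19, Thbs1 by 4.18, Col1a1 by 3.82 and Tgfb2 by 3.69. With the block, 8 of 23 were higher and 0 lower in mCKO (34.8%, beside 13.8%), with a median of 0.25. The 8 were led by Nppa at 2.37, and included Ccl2 at 0.89, Col3a1 at 0.74, Postn at 0.57, Col1a1 at 0.46 and Cybb at 0.42. Without the block none was called. Without both libraries numbered 3 and with no block, 3 of 22 were higher and 0 lower (beside 7.79% of all genes called), namely Postn, Col3a1 and Col1a1. Nppa, Ccl2 and Cybb were not called there. The difference between the models was called lower for 18 of the 24, beside 9.88% of all genes. Col1a1, Col3a1 and Acta2 are also on marker lists.

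**Figure D4:**
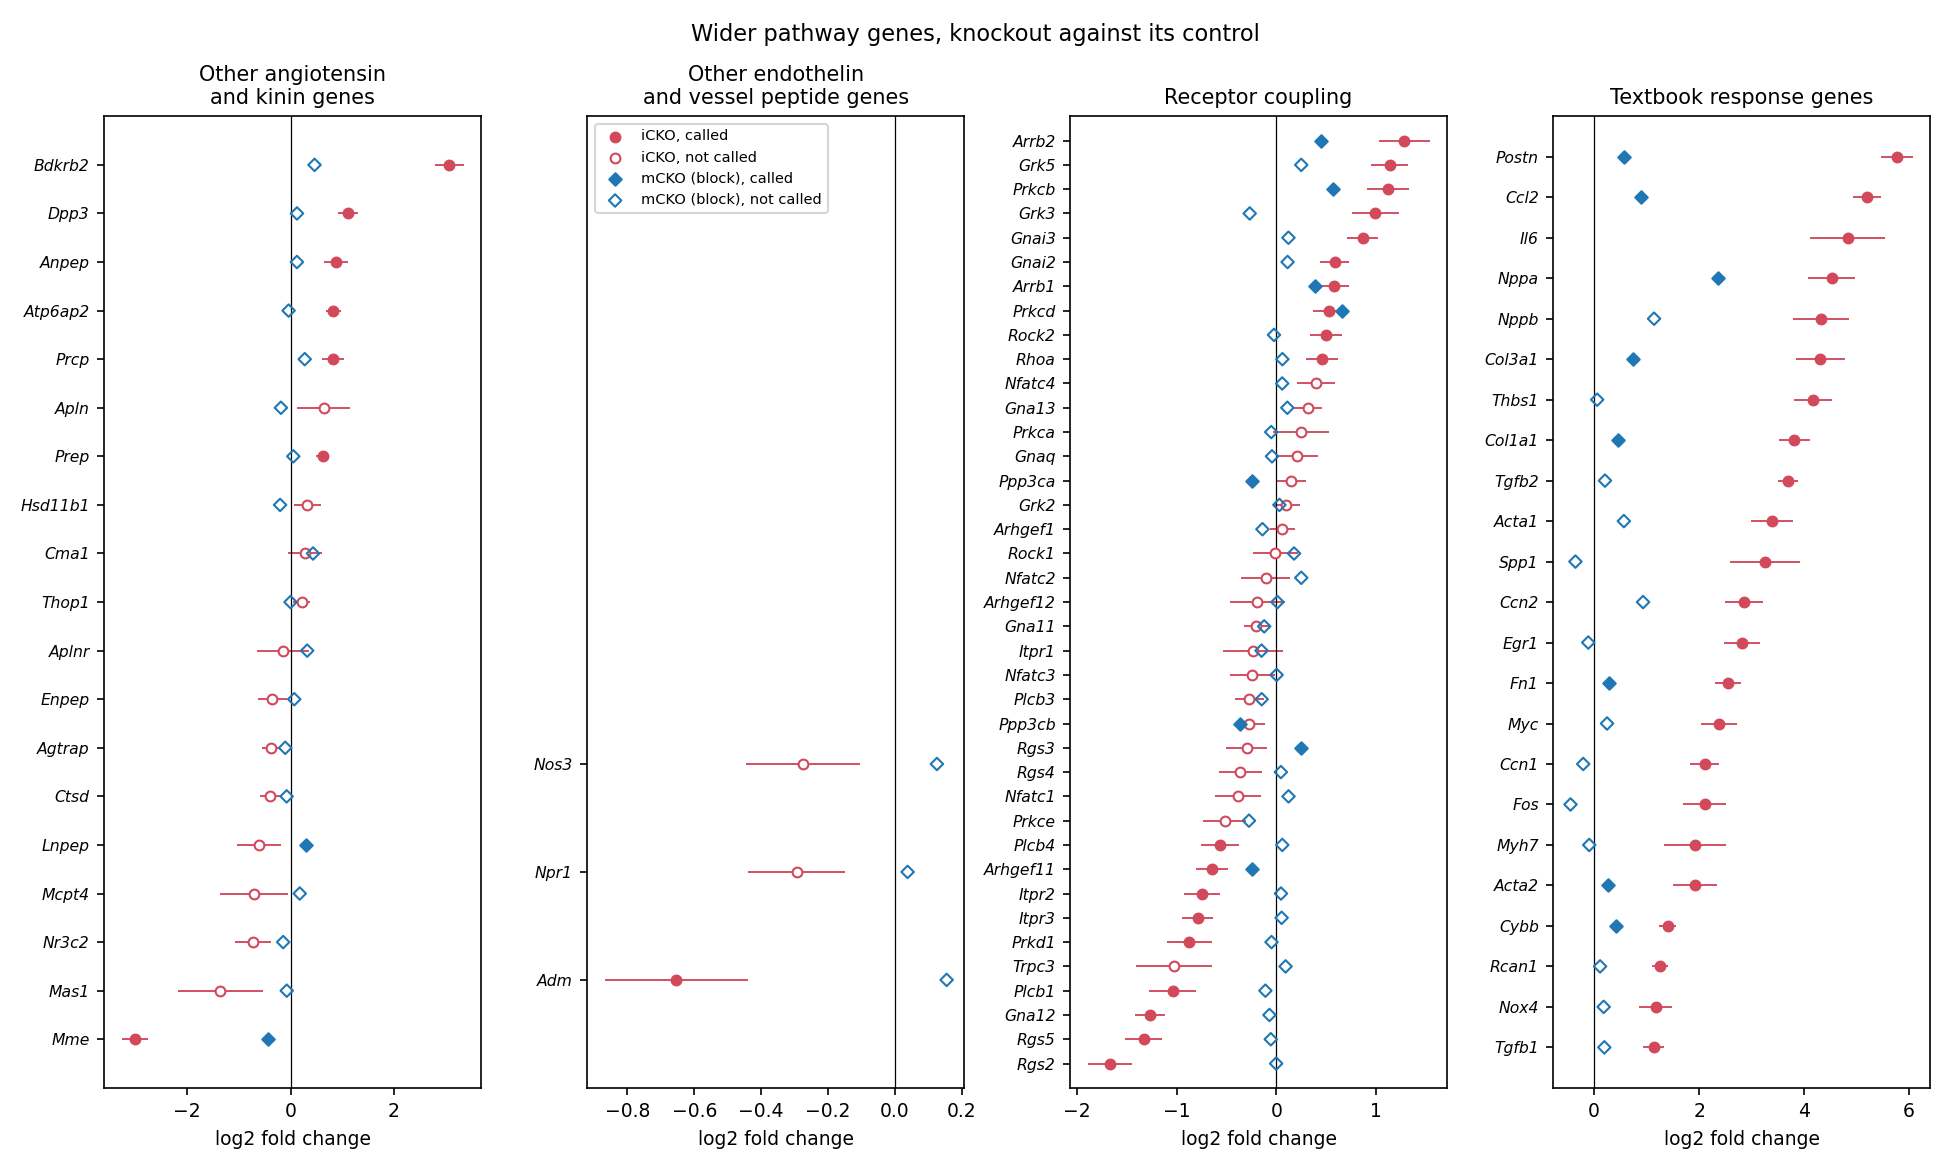
Log2 fold changes (horizontal axis, a scale for each panel) of the tested genes on 4 pathway lists, as circles with standard errors for iCKO against CTR2 and as diamonds for mCKO against CTR1 with the replicate block; filled symbols have an edgeR adjusted p under 0.05. In iCKO the response genes plotted all lie above 0 and are filled, while the angiotensin list has 6 filled above 0 and Mme filled below.

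Markers of cell types moved with the iCKO comparison in these bulk samples, where fewer cells of a type and less RNA per cell cannot be told apart. The sum of 12 cardiomyocyte markers was 53853 to 63028 CPM in iCKO against 109862 to 121634 in CTR2, with 9 of 12 lower. The 15 endothelial markers summed to 1830 to 2055 CPM against 2668 to 3132, with 7 lower and 0 higher, and the 12 mural markers (pericytes and smooth muscle) to 1160 to 1371 against 1757 to 1845, with 4 lower and 4 higher. The 14 fibroblast markers summed to 3978 to 5802 CPM against 2339 to 2902, with 6 higher and 2 lower, and the 12 macrophage markers to 984 to 2083 against 410 to 547, with 11 higher. The shares called were 75% for cardiomyocyte, 46.7% for endothelial, 66.7% for mural, 57.1% for fibroblast and 91.7% for macrophage markers. Of all genes 44.8% were called in iCKO, 25.2% higher and 19.5% lower, and the endothelial share is near that. Ednra and Agtr1a fell where the mural and cardiomyocyte sums were lower and the fibroblast and macrophage sums higher. Agt, Ace and Edn1 rose beside the same sums. Within the mural sum, whose markers went both ways, Rgs5 alone had a mean of 640 CPM in CTR2 and 246 in iCKO. Ece1 and Ednrb were not called, and Ace, which endothelium makes, rose, where the endothelial sum was lower. The part of cell content in the 6 called changes was not tested.

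In mCKO against CTR1, the macrophage sum was 761 to 1354 CPM against 571 to 838 (11 of 12 higher with the block), the cardiomyocyte sum 75551 to 107059 against 89731 to 122460 (7 of 12 lower), and the fibroblast sum 3017 to 5059 against 2839 to 4280 (6 of 14 higher). The endothelial sum overlapped, at 2403 to 4076 against 2297 to 4154 CPM, with 1 of 15 higher, and so did the mural sum, at 1727 to 2066 against 1969 to 2140, with 1 higher and 1 lower. These calls are with the block, which called 13.8% of all genes, and the plain fit called 0 of these markers. Without both libraries numbered 3 and with no block, 10 of 12 macrophage and 3 of 13 fibroblast markers were higher. There 5 of 12 cardiomyocyte markers were lower, beside 7.79% of all genes called. Atrial markers summed to 59.0 to 111 CPM, nerve and Schwann markers to 8.22 to 29.5, mesothelial markers to 6.75 to 61.0 and mast cell markers to 6.31 to 19.4 over all libraries, and erythroid markers to 58.1 to 1196, the highest in replicate 2 of CTR2. In iCKO, where 44.8% of all genes were called, all 5 erythroid markers were lower and 1 of 6 nerve and Schwann markers was lower. There 1 of 6 atrial and 1 of 5 mast cell markers were higher, and 0 of 6 mesothelial markers were called. With the block in mCKO, 1 nerve and Schwann marker was higher and 1 lower, 1 mesothelial marker was higher, and no atrial, mast cell or erythroid marker was called. Edn3, the gene higher in mCKO, was highest in replicate 3 of both groups. The mesothelial sum was highest there too, at 33.3 CPM in CTR1 and 61.0 in mCKO. So were the endothelial, fibroblast, mural, macrophage and mast cell sums. In iCKO, where Edn3 fell, the mesothelial sum overlapped with that of CTR2 (11.7 to 39.5 against 17.6 to 39.1 CPM). The part of any of these cells in Edn3 was not tested.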

How the data were processed

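RNA was measured in left ventricles of 4 groups of 3 libraries. Per the labels' protocols, Trizol RNA was made into TruSeq stranded mRNA libraries. HISAT2 and DESeq, without versions, and GRCm38 are named per the submitters' processing notes. Annotation, counting tool and strand setting: not given in the sources used here. Whole-number gene counts were deposited in 2 tables, of 17260 genes (mCKO, CTR1) and 17325 (iCKO, CTR2). No pair of libraries in a group agreed within sampling noise (lowest chi-square per degree of freedom 6.49).

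From the deposited counts, CPM was computed with TMM factors over all 12 libraries and the 16673 shared genes, per kb of GENCODE M21 exon union between genes. Groups were called not overlapping on CPM scaled within their own table. Coordinates and upstream bases came from RefSeq (GRCm38.p6). Genes kept by filterByExpr (minimum count 10, total 15) were tested in each table with edgeR 4.0.16 (quasi-likelihood, robust, TMM, no covariates, R 4.3.3), and the difference between models in 1 fit. P-values are two-sided, adjusted by Benjamini-Hochberg over all genes tested and called at 0.05, and ± is the SE of a log2 fold change unless SD is named. The fits were also run on simulated counts with the same dispersion for every gene and no deviation shared within a replicate number. These libraries differ from that, so the run does not show how the fits perform on them. A limit of 3 counts was used for 0, for counting error only.

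Across genes, deviations from the group means correlated between mCKO and CTR1 libraries of equal number (r = 0.462, 0.530 and 0.822), each over 0.1, so the replicate block stands beside results there. Libraries 1 and 2 also correlated across numbers (0.551 and 0.528), and either with number 3 at -0.622 to -0.679. What a number marks is not given. Alternatives were the block, DESeq2 size factors, library sizes only, no filter, DESeq2 1.42.0, limma-voom 3.58.1, 1 joint fit and leaving out libraries.

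The genes, lists, tests and alternatives were chosen with earlier results of these data known. The text names all 8 genes, Ddx5, called genes of each pathway list up to 6 per comparison by smallest adjusted p (where fewer than 2 were called, 3 chosen by abundance), and 2 nearest genes for each of the 8. Genes near 0 or low, Anpep, Prcp, the peptidase genes not called in iCKO, and the count ratios were chosen after their values were seen. Some genes that the rule gives are not reported here.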

Additional observations from a re-analysis of the deposited data

Results flagged for a closer look

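These genes were called as changing differently in the 2 models, by the edgeR test of the difference itself (mCKO effect minus iCKO effect, adjusted over 13871 genes, of which 20.8% were called). Among the 8 genes (25% called) they were Edn3, with a difference of 4.15 ± 0.79 (adjusted p = 0.0039), and Agt, at -1.96 ± 0.60 (adjusted p = 0.0362). The call on Agt was lost without any 1 of 7 libraries, and without both libraries numbered 3 of mCKO and CTR1 (edgeR adjusted p = 0.0716). For Edn3 the 3 mCKO libraries lay above CTR1 and the 3 iCKO libraries below CTR2.

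On the list of other angiotensin and kinin genes, the difference was 2.60 for Mme (adjusted p = 1.2e-04), -2.59 for Bdkrb2 (adjusted p = 0.0086), -0.96 for Dpp3 (adjusted p = 0.0128), -0.83 for Atp6ap2 (adjusted p = 0.0135) and -0.53 for Prep (adjusted p = 0.0442). In iCKO each of these 5 was called, and in mCKO with the replicate block only Mme was, lower at -0.45. Bdkrb2 was 0.938 to 1.07 CPM in CTR2 and 5.61 to 9.58 CPM in iCKO, and 0.208 to 0.783 CPM in CTR1 and 0.612 to 1.04 CPM in mCKO. The call on Prep was lost without any 1 of replicates 1 and 2 of CTR1, 1 and 3 of mCKO, 2 and 3 of CTR2, and 2 and 3 of iCKO (-0.43 to -0.59).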

How the results depend on the processing

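In iCKO, Ace, Agtr1a and Edn3 kept their calls under every alternative run. The 6 genes called were 5 on DESeq2 size factors (Edn1, adjusted p = 0.0582) and in the joint fit (Edn1, 0.109), 6 on library sizes alone (Ednra lost, adjusted p = 0.0524; Ece1 gained), and 4 to 6 without 1 library. The replicate numbers of iCKO and CTR2 do not pair (r = 0.0565, -0.0904 and -0.163), and the replicate block left the same 6 genes called there, with 5491 calls over all genes instead of 6068. Library sizes alone moved the median of all genes to 0.24 in iCKO and -0.14 in the difference, and the share of called genes that were higher from 56.4 to 71.5% and from 52.6 to 34.0%; with the block in mCKO it moved from 53.2 to 76.9%.

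In mCKO the count of the 8 genes called was 0 without the block under scaling, filter and tool alternatives and without any 1 library. It was 1 with the replicate block, 1 without both libraries numbered 3, 2 with the block on library sizes only, and 2, 2 and 1 with the block without number 1, 2 or 3. Pathway genes called in mCKO were 0 in the plain fit, 18 with the block, 17 with the block on library sizes, 4 by DESeq2, 9 without both libraries numbered 3, and 18, 11 and 4 with the block without number 1, 2 or 3. All genes called in mCKO were 0 in the plain fit, 1839 with the block, 2055 with it on library sizes, 1040 without both libraries numbered 3, 310 by DESeq2, 4 with no filter, 24 in the joint fit, and 1508, 1093 and 388 with the block without number 1, 2 or 3. In iCKO, 52 pathway genes were called, and 43 to 54 without 1 library; in the difference 31, and 26 to 36. The difference was called for 1 of the 8 genes without both libraries numbered 3 (Agt lost, adjusted p = 0.0716), and for 1 to 3 without 1 library; Edn3 kept its call under every alternative.

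Directions turned only for values not called in the plain fits. Without both libraries numbered 3, Edn1, Ednra and Ednrb in mCKO stood at -0.0408, 0.0747 and -0.0332, and with the block as well at -0.0449, 0.0752 and -0.0370. Ednrb was -0.0394 with the block without number 1. In iCKO, Ednrb was -0.0297 on DESeq2 size factors, -0.00233 with no filter, -0.0296 by DESeq2 and -0.0344 in the joint fit. In the difference it was -0.0501 on library sizes, -0.0293 without both libraries numbered 3, -0.0932 with the block on library sizes, and -0.0327 with the block without those libraries. Without 1 library, values ranged in mCKO from -0.603 to 0.0205 for Agt, -0.389 to 0.0737 for Agtr1a, -0.277 to 0.514 for Edn1, -0.349 to 0.0492 for Ednra, -0.417 to 0.478 for Ednrb, -0.365 to 0.499 for Ece1, -0.37 to 1.02 for Lnpep and -0.20 to 1.88 for Ccl2. They ranged from -0.0614 to 0.0424 for Ednrb in iCKO, and in the difference from -0.377 to 0.448 for Ednrb and -0.549 to 0.25 for Ece1. The cause was not tested. On library sizes alone mean CPM moved by more than 1 SD for Ednrb, to 21.1 in CTR2 and 24.6 in iCKO, and for Ece1, to 147 in CTR2.

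Edn3 in iCKO rests on 3 to 25 counts a library, and 3 libraries a group limit every comparison. Within each comparison Cre and Ddx5 loss cannot be told apart, protein and peptide levels were not measured, and bulk counts do not give the cells that express a gene.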
